A study of Mus musculus with 24 samples.

Results

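The type 2 cytokine axis was followed here through 10 genes, which were found by symbol among the 51138 genes of the count table. They comprised the effector cytokines Il4, Il13 and Il5, the alarmins Il25, Il33 and Tslp, the receptor chains Il1rl1, Il4ra and Il9r, and the transcription factor Gata3. Each symbol matched 1 row, and all 10 passed the filter of at least 10 counts over all samples, although Il25 had only 30 counts in total. RNA was sequenced from whole constructs collected at week 2 from beneath the dorsal skin of Foxp3 DTR/eGFP mice aged 8 to 9 weeks and of both sexes, in which Foxp3-expressing regulatory T cells (Treg) carry the diphtheria toxin receptor. Every construct held 40 mg of biphasic calcium phosphate (BCP) granules, a ceramic bone substitute, and the 6 groups had 4 samples each. BCP carried no cells. BCP+MSC carried 800000 bone marrow mesenchymal stromal cells (MSC), BCP+MSC+RvE1 carried MSC that had been treated with resolvin E1 (RvE1), a pro-resolving lipid, at 10 nM, and BCP+MSC+Treg carried MSC cocultured with sorted, activated Treg. Mice of the depleted groups carried BCP+MSC constructs and received diphtheria toxin at 50 µg/kg, either alone, as (dep)BCP+MSC, or with 50 µL of 1 µM RvE1 at the implant daily, as (dep)BCP+MSC+RvE1inj. Among these samples no toxin was given without the Foxp3-driven receptor being present, so the toxin itself and the loss of Treg cannot be told apart, and seeded and host cells contributed to the same RNA.

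The alarmins interleukin 33, thymic stromal lymphopoietin and interleukin 25 are released or secreted by stromal and epithelial cells and act on group 2 innate lymphoid cells (ILC2), T helper 2 (Th2) cells and mast cells. These cells respond with interleukins 4, 5 and 13, under the transcription factor GATA3. Interleukins 4 and 13 signal through the receptor chain encoded by Il4ra and through STAT6 and turn macrophages towards the alternatively activated state, while interleukin 5 drives the growth and survival of eosinophils. At ceramic implants this arm of immunity is studied because it shapes macrophages, fibrosis and the fusion of cells on the material.

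The 3 effector cytokine genes are neighbours on chromosome 11 (GRCm38), with the Rad50 gene lying between Il13 and Il5. Il4 spans chr11:53602982-53618669 and Il13 chr11:53631324-53634702, both on the minus strand and 12.7 kb apart. Il5 lies at chr11:53720794-53725106 on the plus strand, 86.1 kb beyond Il13. Since their RNA levels varied together over the constructs, as described further on, the 250 bases before 1 start site of each gene, for Il4 the one at its 5′ end, are shown from RefSeq on GRCm38.p6, written 5′ to 3′ along the gene. Capitals mark matches, on either strand, to a GATA hexamer (GATA preceded by A or T and followed by A or G), to a STAT6-type motif (TTC and GAA with 4 bases of any kind between them) and to the NFAT-type motif GGAAAA.
Il4, chr11:53618666-53618915, minus strand: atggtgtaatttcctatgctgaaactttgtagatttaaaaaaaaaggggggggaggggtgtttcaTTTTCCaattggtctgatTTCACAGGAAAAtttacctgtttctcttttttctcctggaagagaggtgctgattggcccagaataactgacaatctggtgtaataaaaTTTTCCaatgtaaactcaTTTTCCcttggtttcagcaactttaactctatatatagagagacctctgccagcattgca
Il13, chr11:53634703-53634952, minus strand: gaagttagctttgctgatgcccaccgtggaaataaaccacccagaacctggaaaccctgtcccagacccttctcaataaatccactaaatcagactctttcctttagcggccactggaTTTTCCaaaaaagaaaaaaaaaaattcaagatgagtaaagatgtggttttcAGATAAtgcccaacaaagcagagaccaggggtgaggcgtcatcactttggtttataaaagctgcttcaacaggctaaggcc
Il5, chr11:53720544-53720793, plus strand: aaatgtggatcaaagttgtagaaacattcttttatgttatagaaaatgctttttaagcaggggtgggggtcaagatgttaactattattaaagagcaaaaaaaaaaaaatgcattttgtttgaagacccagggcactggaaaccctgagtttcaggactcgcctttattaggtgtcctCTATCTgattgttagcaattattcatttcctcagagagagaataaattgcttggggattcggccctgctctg
The Il13 window held 1 GATA hexamer at position -81 and 1 NFAT-type match at -132, counted from the start site to the first base of the match. The Il5 window held 1 GATA hexamer, at -72. The Il4 window held no GATA hexamer but 4 NFAT-type matches, at -185, -161, -78 and -60, and 1 STAT6-type match at -167 that overlaps the NFAT-type match at -161. A second RefSeq start site of Il4, with the window chr11:53617339-53617588 on the minus strand, had 1 GATA hexamer at -80 and neither of the other motifs. Over 32851 promoter windows of the same length, 26.5% held a GATA hexamer, 20.4% an NFAT-type and 5.85% a STAT6-type match, and a match describes the letters alone. RefSeq windows were matched for 8 of the 10 genes, that is all but Il25 and Tslp.

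Total counts per sample ran from 8482701 to 144417743, and the floor of detection, taken as 3 counts, was between 0.0223 and 0.299 CPM on the TMM scale used for all levels here. The constructs numbered 1 and 2 of (dep)BCP+MSC stood apart from the other samples on the second principal component of all genes, so results that rest on them are given with and without them. The markers of the host tissue were present throughout. Macrophage markers summed to between 5083 and 12758 CPM and skeletal muscle markers to between 332 and 37096 CPM. The 8 Treg markers summed to 46.6 to 89.2 CPM in (dep)BCP+MSC and 68.9 to 99.3 CPM in (dep)BCP+MSC+RvE1inj, against 127 to 143 CPM in BCP+MSC and 110 to 179 CPM in BCP. BCP+MSC+RvE1, at 75.3 to 129 CPM, and BCP+MSC+Treg, at 82.1 to 124 CPM, overlapped with both depleted groups. In such bulk samples fewer cells of a type and less RNA per cell cannot be told apart.

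Per kilobase of exon, Il4ra was the most abundant transcript of the axis, with a mean of 57.1 CPM per kilobase over the 24 samples, followed by Il33 at 31.3. Gata3 and Il1rl1 came next at 5.57 and 5.55, then Il4 at 3.83, Tslp at 3.10 and Il13 at 2.51. Il5 at 0.522, Il9r at 0.268 and Il25 at 0.0355 were the scarcest. The receptor for interleukins 4 and 13 was thus carried at a far higher level than either ligand. The genes also differed in how much they varied between samples. The ratio of the highest sample to the lowest one with more than 3 counts, in CPM, was 120 for Gata3, 35.3 for Il13, 32.1 for Il33, 30.9 for Il5 and 18.6 for Tslp, but 12.2 for Il9r, 6.16 for Il1rl1, 5.09 for Il4 and 4.70 for Il4ra. Over all pairs of the 6 groups, the ranges of a gene overlapped in 144 of 150 cases. The pairs that separated were of Il33, Tslp and Il4ra and are given below, with the share of all genes that separated. Between groups next to each other in mean CPM the ranges overlapped in 49 of 50 cases, which the ordering itself makes likely. The exception among these was Il33, whose levels in BCP+MSC lay above all those of (dep)BCP+MSC+RvE1inj.

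**Figure D1:**
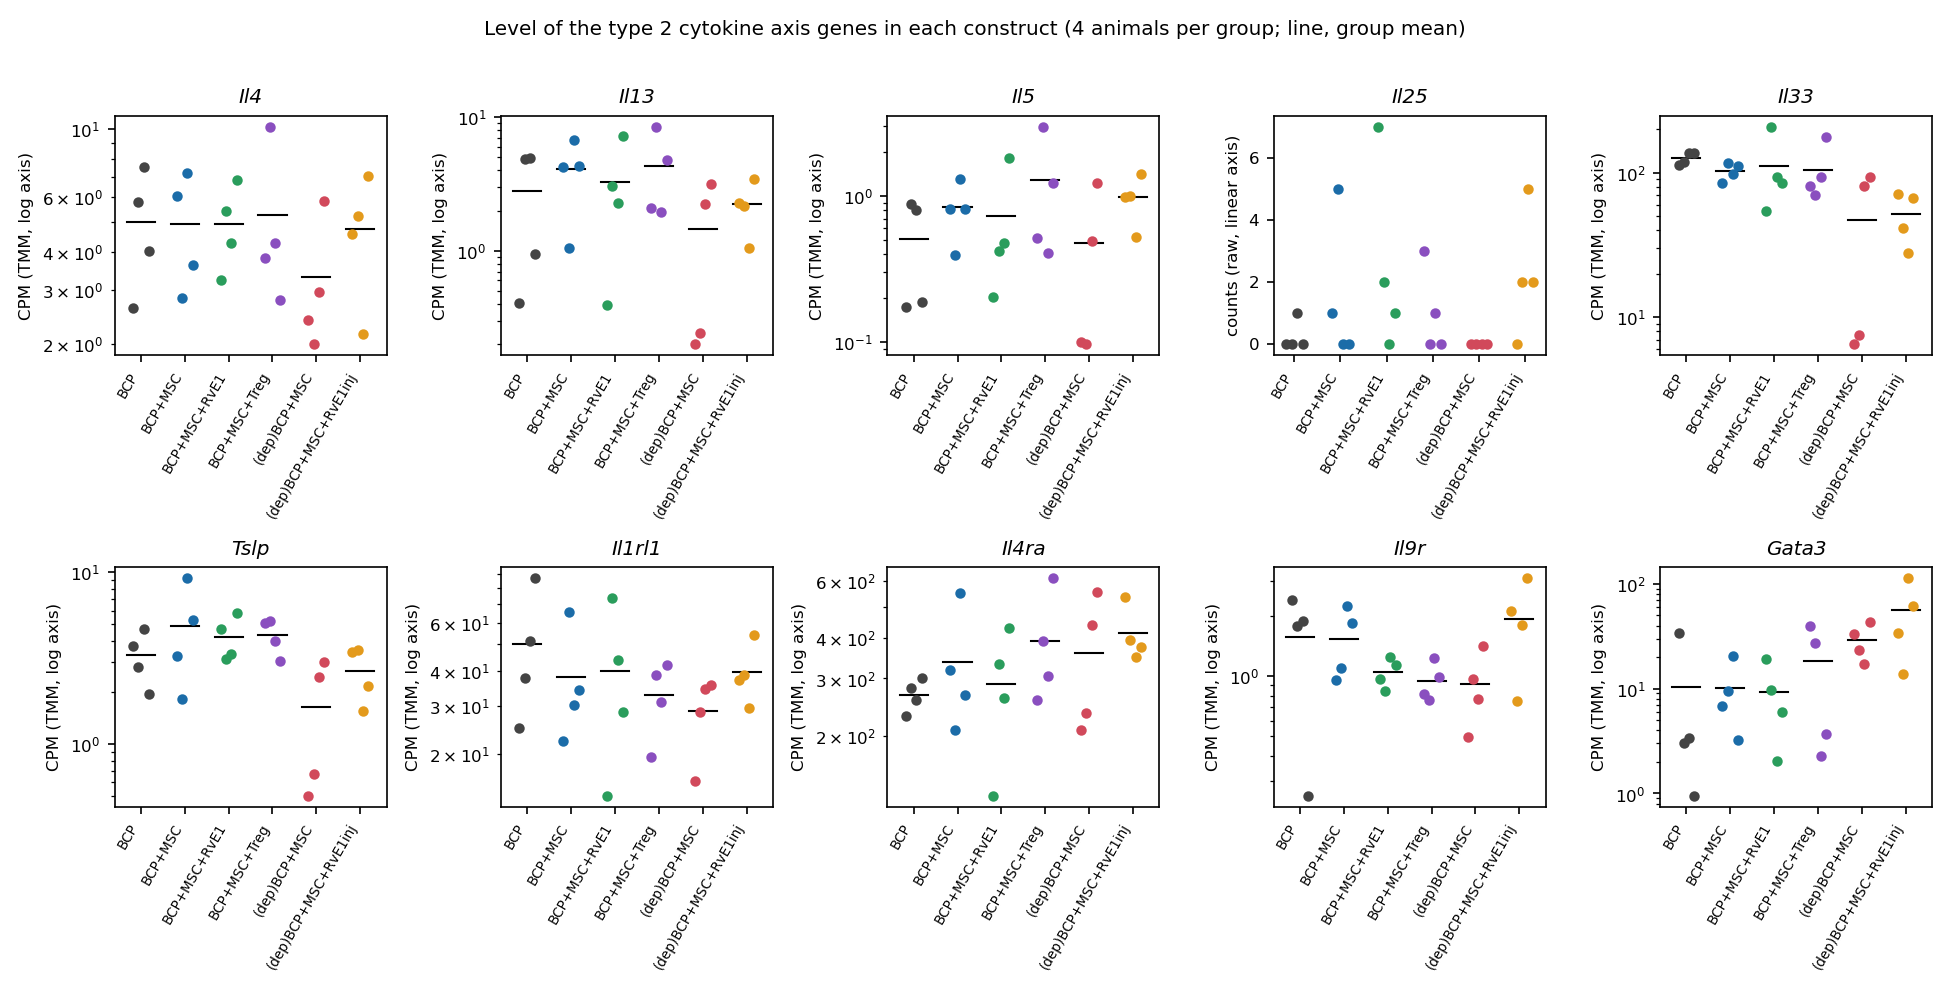
Level of each gene in each of the 24 constructs by group, in TMM-scaled CPM on a log axis, with the group mean as a line; Il25 is shown as raw counts on a linear axis. Il33, Tslp, Il13 and Il5 have a pair of low constructs in (dep)BCP+MSC, at 6.48 and 7.54 CPM for Il33, and Gata3 has its highest construct, at 113 CPM, in (dep)BCP+MSC+RvE1inj. Il13 and Il5 also have a low pair in BCP.

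Il4, the cytokine that gives Th2 cells their identity, had a mean of 4.93 ± 2.04 CPM (SD, n = 4) in BCP+MSC and similar means in BCP (5.00 ± 2.13), BCP+MSC+RvE1 (4.93 ± 1.54), BCP+MSC+Treg (5.26 ± 3.34) and (dep)BCP+MSC+RvE1inj (4.75 ± 2.02). The mean in (dep)BCP+MSC was 3.30 ± 1.74 CPM. The ranges of all 6 groups overlapped, and the highest construct of all, at 10.2 CPM, belonged to BCP+MSC+Treg.

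Il13, which drives alternative activation of macrophages and matrix deposition, was measured at 4.26, 1.05, 6.72 and 4.34 CPM in BCP+MSC. With depletion it was at 0.199, 0.241, 2.26 and 3.15 CPM, the lower pair being constructs 1 and 2, with 2 and 10 counts. Their levels lay below every construct of the other 5 groups, whereas the other pair lay among them. The (dep)BCP+MSC+RvE1inj constructs were at 2.28, 2.15, 1.04 and 3.44 CPM. Variation within the undepleted groups was as wide, since BCP held 0.408, 4.82, 4.96 and 0.944 CPM and BCP+MSC+RvE1 ran from 0.395 to 7.23 CPM.

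Il5, the eosinophil growth factor, was scarcer but followed the same constructs. It was at 0.818, 0.397, 1.31 and 0.817 CPM in BCP+MSC and at 0.0997, 0.0964, 0.494 and 1.22 CPM in (dep)BCP+MSC, where constructs 1 and 2 had 1 and 4 counts. The injected group held 0.981, 0.996, 0.522 and 1.421 CPM. BCP also held a low pair, at 0.175 and 0.189 CPM in constructs 1 and 4, with 3 counts each. The floor of construct 1 of (dep)BCP+MSC was 0.299 CPM, so it could not be placed below that pair. The groups overlapped, and the highest construct, at 2.98 CPM, was the BCP+MSC+Treg construct that also held the highest Il4 and Il13. Exons of Il5 share bases with an antisense gene, Gm12214, which had 0 counts in all samples.

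Il33, the nuclear alarmin of fibroblasts and endothelium that signals through the receptor encoded by Il1rl1, was even across BCP, at 112, 119, 138 and 137 CPM, and across BCP+MSC, at 84.8, 116, 98.0 and 111 CPM. It was split in (dep)BCP+MSC, with 6.48 and 7.54 CPM in constructs 1 and 2 (65 and 313 counts) and 80.3 and 93.4 CPM in constructs 4 and 5. The lower pair lay far below every other construct, while the upper pair lay at or just below the range of BCP+MSC. After depletion with RvE1 injection it was at 70.9, 41.1, 27.9 and 67.0 CPM, below all 4 constructs of BCP+MSC and of BCP. The values of BCP also lay above all those of (dep)BCP+MSC. Of all genes tested, 11.8% separated in this way between BCP and (dep)BCP+MSC and 16.0% between BCP and (dep)BCP+MSC+RvE1inj. The primed and Treg cocultured groups were more scattered, from 54.3 to 208 CPM in BCP+MSC+RvE1 and from 70.1 to 175 CPM in BCP+MSC+Treg.

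Tslp, the epithelial alarmin that primes dendritic cells and ILC2, was at 3.25, 1.83, 9.25 and 5.26 CPM in BCP+MSC. With depletion it was at 0.498, 0.675, 2.45 and 3.00 CPM, and constructs 1 and 2, with 5 and 28 counts, were again the lowest of all 24. All 4 (dep)BCP+MSC constructs lay below the ranges of BCP+MSC+RvE1 (3.13 to 5.77 CPM) and BCP+MSC+Treg (3.04 to 5.24 CPM) but overlapped with BCP+MSC. Such a separation was found for 12.2% of all genes in the former pair of groups and for 9.02% in the latter. Tslp was at 3.43, 3.54, 1.57 and 2.19 CPM in (dep)BCP+MSC+RvE1inj. Il25, the alarmin of tuft and epithelial cells, was close to absent, with 0 counts in 13 of the 24 samples and at most 7 counts in any. It was at 0 counts in all 4 (dep)BCP+MSC constructs and at 0, 2, 5 and 2 counts in (dep)BCP+MSC+RvE1inj.

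Il1rl1, the interleukin 33 receptor carried by mast cells, ILC2 and a part of Treg, had a mean of 50.2 ± 26.8 CPM in BCP, 38.0 ± 18.9 in BCP+MSC and 32.8 ± 10.1 in BCP+MSC+Treg (SD, n = 4), and ran from 14.1 to 73.8 CPM in BCP+MSC+RvE1. It was at 28.7 ± 8.99 CPM in (dep)BCP+MSC and 39.8 ± 10.4 in (dep)BCP+MSC+RvE1inj, and all ranges overlapped. Il4ra, the shared chain of the receptors for interleukins 4 and 13, ran from 130 CPM in a BCP+MSC+RvE1 construct to 611 CPM in a BCP+MSC+Treg construct. Its group means lay between 267 ± 30.8 CPM in BCP and 413 ± 84.0 CPM in (dep)BCP+MSC+RvE1inj, and these were the only groups of Il4ra whose ranges did not overlap, as for 16.0% of all genes.

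Il9r, the receptor chain for the mast cell growth factor interleukin 9, was at 0.498, 0.964, 0.764 and 1.41 CPM in (dep)BCP+MSC and at 2.11, 0.754, 1.79 and 3.08 CPM in (dep)BCP+MSC+RvE1inj. In 3 of 4 injected constructs it lay above the whole (dep)BCP+MSC range, and construct 2 lay within it. In undepleted mice it was at 0.955, 1.10, 2.25 and 1.84 CPM in BCP+MSC and at 0.966, 0.842, 1.25 and 1.13 CPM in BCP+MSC+RvE1, where the ranges overlapped.

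Gata3, the master regulator of Th2 cells and ILC2 that is also expressed in skin epithelium and hair follicles, varied the most. It was at 6.88, 9.58, 20.7 and 3.21 CPM in BCP+MSC and at 34.2, 3.00, 3.40 and 0.944 CPM in BCP. Among the undepleted groups it was also at 39.9, 27.2, 2.30 and 3.70 CPM in BCP+MSC+Treg and at 19.4, 9.81, 2.02 and 6.05 CPM in BCP+MSC+RvE1. The depleted groups had higher means, with 33.1, 23.2, 17.3 and 42.8 CPM in (dep)BCP+MSC and 34.1, 13.9, 113 and 61.7 CPM in (dep)BCP+MSC+RvE1inj, and each of them overlapped with BCP+MSC through 1 construct. The upper pair of BCP+MSC+Treg constructs lay within the range of both depleted groups. A set of 20 keratinocyte and hair follicle markers summed to 62.8 to 145 CPM in BCP+MSC, 55.1 to 230 CPM in BCP+MSC+Treg, 109 to 699 CPM in (dep)BCP+MSC and 59.4 to 432 CPM in (dep)BCP+MSC+RvE1inj, and only Krt25 in the former and Dsc3 and Dsg3 in the latter depleted group had 0 counts in all samples of the group. The part of these markers in the Gata3 level was not tested beyond a model with their mean log2 CPM as a covariate, which is given below.

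The contribution of MSC and of their priming was examined first. No gene of the axis passed an adjusted p-value of 0.05 (edgeR quasi-likelihood, Benjamini-Hochberg over 30564 genes) in BCP+MSC, BCP+MSC+RvE1 or BCP+MSC+Treg against BCP, nor between these 3 MSC groups. Over all genes tested, 0.0% passed in each of these 6 comparisons, so the 10 genes shared this with the rest. DESeq2 likewise called none of them, and between 0 and 101 of all genes in the same comparisons. At an unadjusted p-value under 0.05 none of the 10 passed either, while 5.06% of all genes did in BCP+MSC against BCP, 15.6% in BCP+MSC+RvE1 against BCP and 7.6% in BCP+MSC+Treg against BCP. Between the MSC groups these shares were 3.26% (BCP+MSC+RvE1 against BCP+MSC), 2.72% (BCP+MSC+Treg against BCP+MSC) and 2.37% (BCP+MSC+Treg against BCP+MSC+RvE1). With 1 construct of the compared groups left out, the 3 shares against BCP ran from 3.23% to 9.05%, 7.84% to 19% and 3.85% to 14.9%. Leaving Il25 aside, the estimates of the other 9 genes lay between -0.74 and 1.24 on the log2 scale in the 3 comparisons with BCP, with SE of 0.35 to 1.02. The highest of these, Il5 in BCP+MSC+Treg against BCP, had a log2 fold change of 1.24 ± 0.78 (SE). In none of the 6 comparisons did the 4 values of a gene of the axis separate from the 4 values of the other group, which 1.81%, 10.6%, 2.61%, 1.71%, 1.05% and 1.01% of all genes did in the order given above.

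Treg depletion was examined in (dep)BCP+MSC against BCP+MSC. None of the 10 genes passed the adjusted threshold, which 3.92% of all genes did, and 1 passed the unadjusted one, which 20.3% of all genes did. That gene was Tslp, with a log2 fold change of -1.53 ± 0.50 (SE), an unadjusted edgeR p-value of 0.0055 and 0.085 after adjustment. The exact permutation test over the 70 arrangements of 4 against 4 gave p = 0.11, and the Tslp values of the groups overlapped, as did those of the 9 other genes, while 9.15% of all genes separated. Tslp passed the adjusted threshold with DESeq2 (-1.51, adjusted p = 0.019), as did 12.5% of all genes with an adjusted p-value there, and without construct 5 of (dep)BCP+MSC (-1.96, edgeR adjusted p = 0.038), as did 5.5%. Without constructs 1 and 2 its estimate was -0.83 ± 0.52 (edgeR adjusted p = 0.66). In that fit 0.142% of all genes passed the adjusted threshold and 9% the unadjusted one. None of the 9 genes other than Il25 passed either. Across the 24 samples the Tslp level also moved with the total count of the sample (r = 0.57, permutation p = 0.003, and rho = 0.63, permutation p = 0.0013, with adjusted p-values of 0.013 and 0.0077 over 67 relations, r = 0.56 without constructs 1 and 2 of (dep)BCP+MSC, the farthest in Tslp, and 0.62 after group centring). With library size as a covariate its estimate was -1.41 (edgeR adjusted p = 0.071). Il33 had an estimate of -1.12 ± 0.62 (edgeR adjusted p = 0.32, exact permutation p = 0.057) that became -0.22 ± 0.43 without constructs 1 and 2. Il13 had one of -1.43 ± 0.88 (edgeR adjusted p = 0.38, exact permutation p = 0.14) that became -0.58 ± 0.96. Of the 9 genes other than Il25, 7 had a lower estimate in (dep)BCP+MSC with a median of -0.73, beside a median of -0.04 over all genes. Without constructs 1 and 2 it was 6 of 9 with a median of -0.14, so most of this shift rested on these 2 animals.

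**Figure D2:**
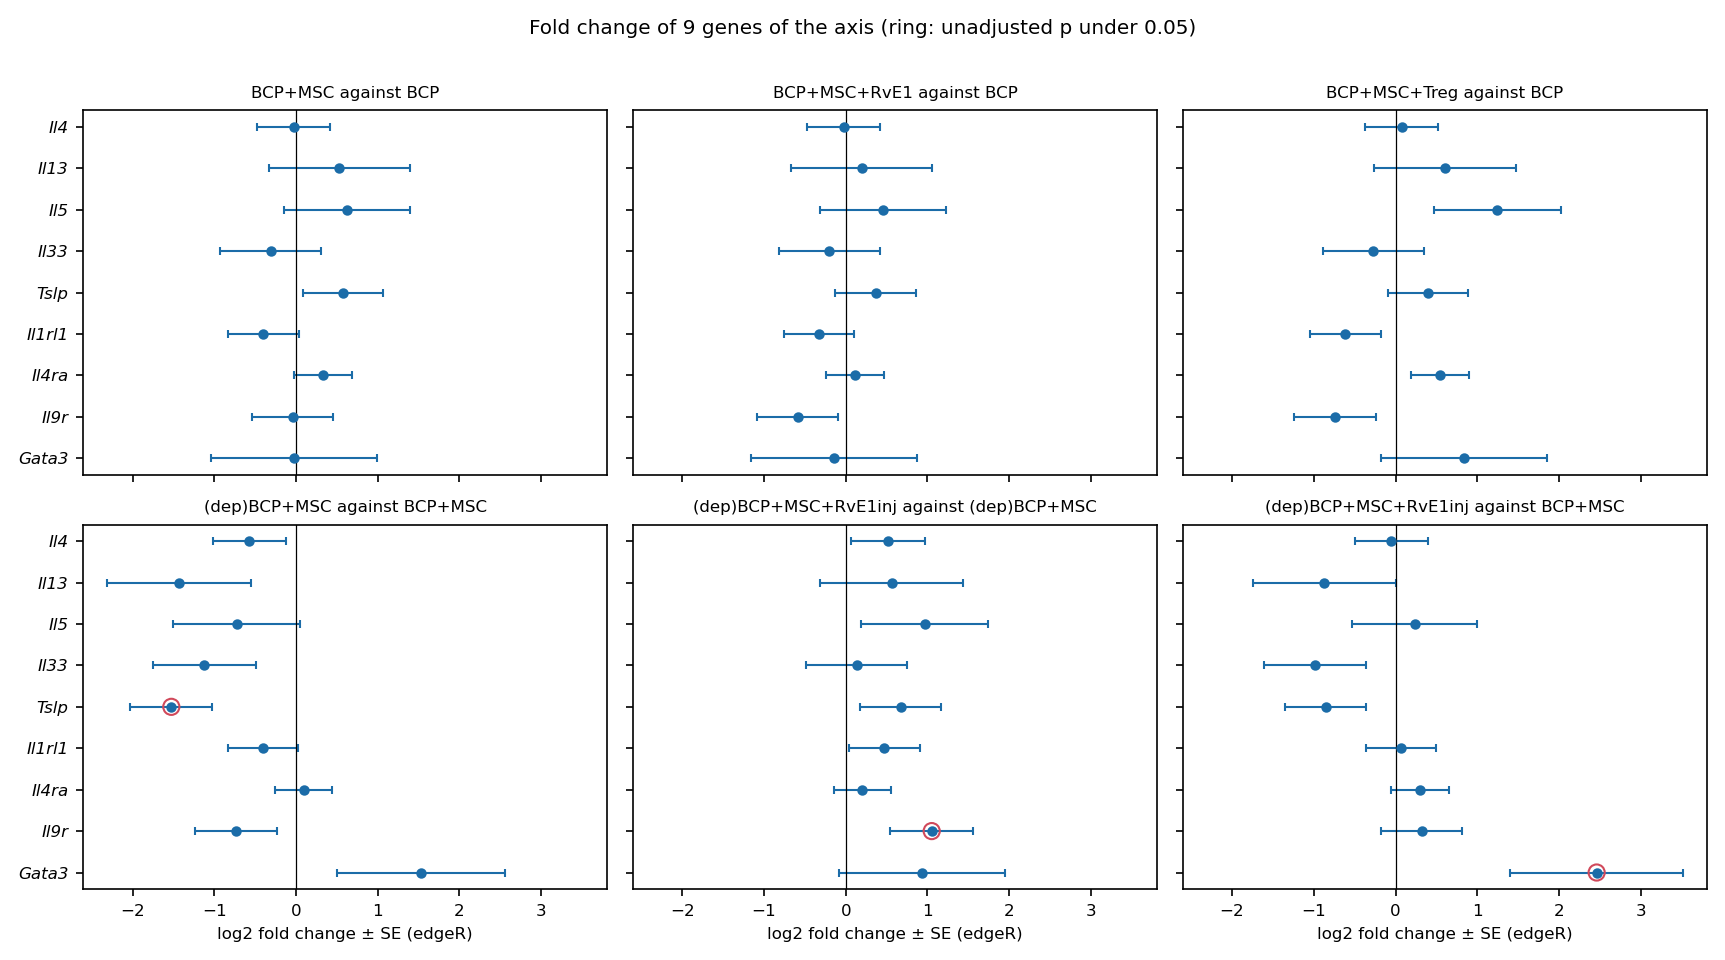
Log2 fold change with its SE (edgeR) for 9 genes of the axis in 6 comparisons; a ring marks an unadjusted p-value under 0.05, and Il25 is left out for its low counts. The 3 upper panels hold no ring, and the rings in the lower panels mark Tslp at -1.53, Il9r at 1.05 and Gata3 at 2.46.

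Local RvE1 in depleted mice was examined in (dep)BCP+MSC+RvE1inj against (dep)BCP+MSC, a comparison that shares constructs of (dep)BCP+MSC with the previous one. The study describes no injection of vehicle alone in (dep)BCP+MSC, so RvE1 and the daily injection cannot be told apart. None of the 10 genes passed the adjusted threshold, which 0.0% of all genes did, and Il9r and Il25 passed the unadjusted one, as did 7.42% of all genes. Both had been singled out in earlier work on these samples, so this is no independent evidence. Il9r had a log2 fold change of 1.05 ± 0.51 (SE), an unadjusted edgeR p-value of 0.049 that became 0.67 after adjustment, and an exact permutation p of 0.11. Without constructs 1 and 2 of (dep)BCP+MSC, Il9r did not pass the unadjusted threshold of edgeR, which 2.86% of all genes did. Its unadjusted p-value stayed under 0.05 in 2 of the 8 fits that left out 1 construct. No gene of the axis separated the groups, which 2.6% of all genes did. Il25 had 9 counts in the 4 injected constructs against 0 counts in the 4 others. Pooled over the group this was 0.0473 CPM, or 2.91 times the group floor of 3 counts of (dep)BCP+MSC, which was 0.0163 CPM. That ratio carries no error for the 9 counts, so it is no lower bound. The unadjusted edgeR p-value was 0.0084 (0.67 after adjustment) and the exact permutation p was 0.14. Of the 9 counts 5 came from construct 3, and without that construct the ratio was 1.39, while it was 2.48 to 5.28 without 1 of the 3 others. The BCP+MSC+RvE1 constructs held 10 counts of Il25, so counts of this size also occurred without depletion. All 9 other genes had a higher estimate after the injection, with a median of 0.56 beside 0.00 over all genes. Without constructs 1 and 2 of (dep)BCP+MSC it was 6 of 9, with a median of 0.14.

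The injected depleted mice were also set against the undepleted BCP+MSC group, from which they differ by toxin and injection together. None of the 10 genes passed the adjusted threshold, which 0.72% of all genes did, and 1 passed the unadjusted one, which 13.7% did. Gata3 had a log2 fold change of 2.46 ± 1.06 (SE), with an unadjusted edgeR p-value of 0.031 (0.31 after adjustment) and an exact permutation p of 0.057. Its unadjusted p-value stayed under 0.05 in 3 of the 8 fits that left out 1 construct. With the mean log2 CPM of the keratinocyte and hair follicle markers as a covariate the Gata3 estimate was 1.82 ± 0.63 (edgeR adjusted p = 0.21), and that of (dep)BCP+MSC against BCP+MSC went from 1.53 ± 1.03 to 0.31 ± 0.63. For (dep)BCP+MSC+RvE1inj against (dep)BCP+MSC it went the other way, from 0.93 to 1.52 ± 0.62 (edgeR adjusted p = 0.68). With Xist as a covariate the estimate against BCP+MSC was 4.36 (edgeR adjusted p = 0.066). Il33 was the only gene of the 10 whose values did not overlap between these groups, which 7.21% of all genes did. Its estimate was -0.98 ± 0.62, with an edgeR adjusted p of 0.51, while the exact permutation test gave p = 0.029, the smallest that 4 against 4 allows. Fibroblast markers summed to 4352 to 16504 CPM in the injected group and 17589 to 40758 CPM in BCP+MSC. Their part in the Il33 level was not tested.

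RvE1 reached the constructs in 2 ways, by priming of the MSC and by injection, and the difference of the 2 effects was tested as a contrast of the same model. Primed constructs lay in undepleted mice and injections were given to depleted mice, so delivery and depletion cannot be told apart in this contrast. None of the 10 genes passed the adjusted threshold, as did 0.0% of all genes, and Il9r and Il25 passed the unadjusted one, as did 4.45%. For Il9r the injection effect exceeded the priming effect by 1.60 ± 0.71 on the log2 scale (edgeR adjusted p = 1.0), and by 1.38 without constructs 1 and 2 of (dep)BCP+MSC, where it no longer passed the unadjusted threshold. Over all 6 groups at once, none of the 10 genes passed an adjusted p-value of 0.05 for any difference, which 4.75% of all genes did, and none passed the unadjusted one, which 20.4% did. The smallest adjusted edgeR p-value of the 10 was 0.25, while DESeq2 called Gata3 (adjusted p = 0.049), as it did 17.4% of all genes with an adjusted p-value.

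The wider pathway was read from 4 lists of further genes, namely 8 other ligands, 13 receptor subunits, 20 signalling and transcription factors and 24 target genes of interleukins 4 and 13. Of the 8 ligands 6 were tested, and all genes of the other lists were. In (dep)BCP+MSC against BCP+MSC, 4 of these 63 genes passed the adjusted threshold, where 3.92% of all genes did. Rora, a nuclear receptor needed for ILC2 development and also part of the circadian clock, rose by 1.96 ± 0.36 on the log2 scale (edgeR adjusted p = 0.0025), from 32.1 ± 9.03 to 125 ± 83.4 CPM. Clec10a, a lectin of alternatively activated macrophages and dendritic cells, rose by 1.61 ± 0.39 (adjusted p = 0.021), from 191 ± 144 to 580 ± 159 CPM. Postn, which encodes the matrix protein periostin and is also a fibroblast marker, fell by 1.80 ± 0.39 (adjusted p = 0.0083), from 1820 ± 793 to 522 ± 148 CPM. Ebi3, a subunit of interleukins 27 and 35, fell by 1.21 ± 0.35 (adjusted p = 0.049), from 11.3 ± 3.46 to 4.80 ± 2.66 CPM. By list this was 1 of 20 signalling factors higher, 1 of 24 target genes higher and 1 lower, 1 of 6 ligands lower and 0 of 13 receptor subunits, beside 1.75% of all genes higher and 2.17% lower. The called target genes lay in opposite directions, and the list's median log2 fold change of -0.08 was close to that of all genes. At the unadjusted threshold 3 of the 24 target genes were higher and 4 lower, where 20.3% of all genes passed. Among the target genes not past the adjusted threshold, Chil3 ran from 166 to 1294 CPM in BCP+MSC and from 3374 to 10875 CPM in (dep)BCP+MSC. Such a separation was found for 9.15% of all genes. Clec10a was lost without construct 1 or 4 of BCP+MSC or construct 2 of (dep)BCP+MSC (adjusted p of 0.0504 to 0.086), and Ebi3 without construct 1, 3 or 4 of BCP+MSC or construct 1 or 2 of (dep)BCP+MSC (0.058 to 0.16), whereas Rora and Postn passed with any 1 construct left out. With edgeR on the 2 groups only none of the 4 passed (adjusted p of 0.056 to 0.22), where 0.595% of all genes did. Ebi3 was also lost without the filter on low counts (edgeR adjusted p = 0.062) and with the keratinocyte covariate (0.11). In those fits 2.44% and 2.11% of all genes passed. Without constructs 1 and 2 none of the 4 kept an adjusted p-value under 0.05, which 0.142% of all genes had in that fit. The estimates were then 1.00 for Rora, 1.55 for Clec10a, -1.49 for Postn and -0.73 for Ebi3. The 12 fibroblast markers, which hold Postn too, summed to 5907 to 14292 CPM in (dep)BCP+MSC and 17589 to 40758 CPM in BCP+MSC, with none at 0, and their part in the Postn and Il33 levels was not tested.

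In (dep)BCP+MSC+RvE1inj against BCP+MSC, 2 of the 63 genes passed the adjusted threshold, where 0.72% of all genes did. Clec10a rose by 1.96 ± 0.40 (edgeR adjusted p = 0.018), to 741 ± 203 CPM. Bcl11b, a transcription factor of T cells and ILC2, rose by 1.85 ± 0.40 (adjusted p = 0.025), from 1.76 ± 0.49 to 6.38 ± 0.96 CPM. A set of 15 T cell markers summed to 200 to 248 CPM in the injected group and to 47.5 to 112 CPM in BCP+MSC, with none at 0, and its part in the Bcl11b level was not tested. Clec10a was lost without construct 1 or 4 of BCP+MSC or construct 4 of (dep)BCP+MSC+RvE1inj (adjusted p of 0.055 to 0.085). Bcl11b was lost without construct 1, 2 or 3 of BCP+MSC or construct 3 or 4 of (dep)BCP+MSC+RvE1inj (0.054 to 0.083). Both were also lost with Xist as a covariate (edgeR adjusted p of 0.052 for Clec10a and 0.090 for Bcl11b) and with edgeR on the 2 groups only (0.149 and 0.057). Of all genes 0.831% passed in the former fit and 0.153% in the latter. The target genes had a median log2 fold change of 0.52, beside -0.04 over all genes, and 0 of 13 receptor subunits passed.

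**Figure D3:**
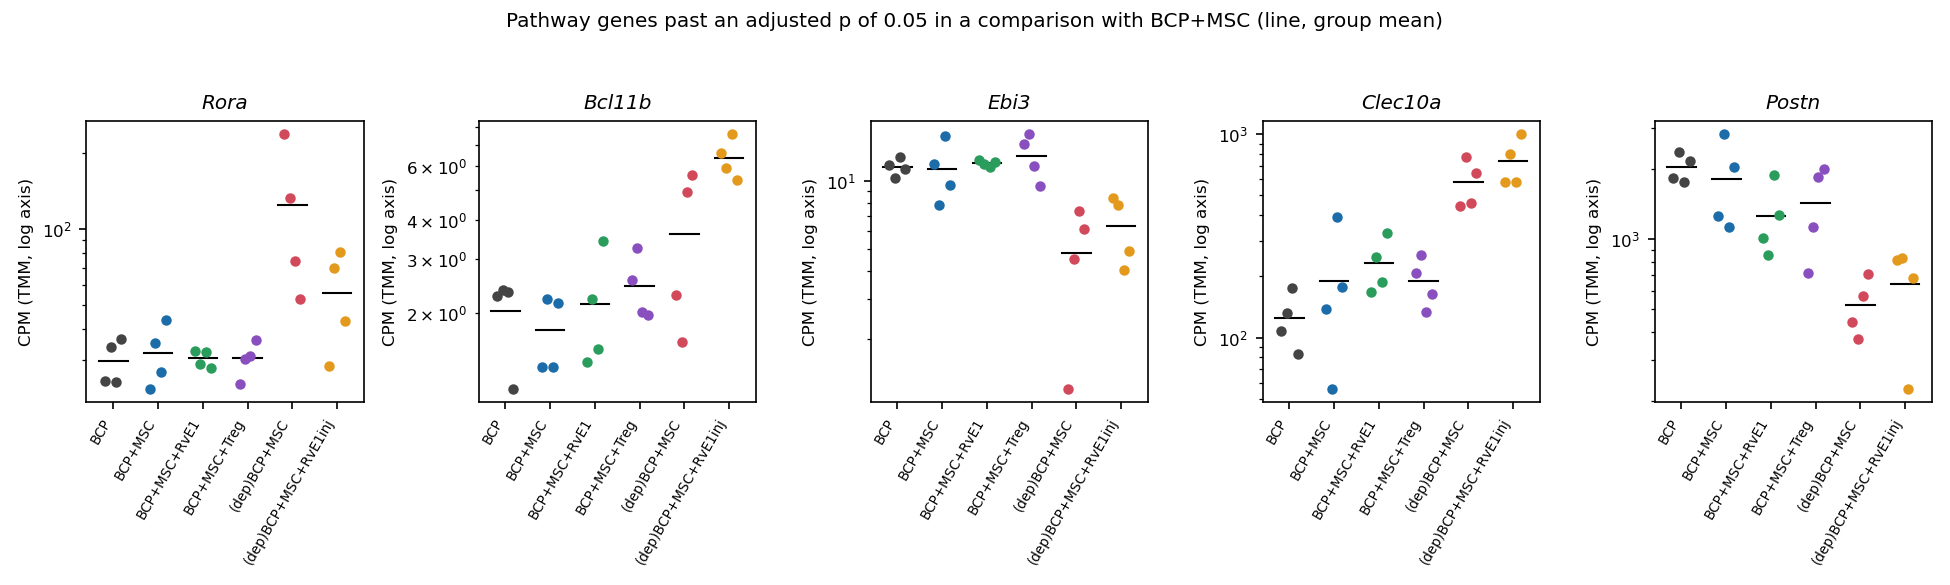
Level of 5 pathway genes in each construct, in TMM-scaled CPM on a log axis, with the group mean as a line. Clec10a lies between 442 and 1004 CPM in the depleted groups and between 55.7 and 392 CPM in the 4 others, while Rora reaches 239 CPM in (dep)BCP+MSC.

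In the remaining comparisons between groups no pathway gene passed the adjusted threshold, which 0.0% of all genes passed there, and those named next passed the unadjusted one. Klf4, a regulator of alternative activation, was at -0.84 ± 0.29 in BCP+MSC against BCP (edgeR adjusted p = 0.89, exact permutation p = 0.26) and at -0.99 ± 0.29 in BCP+MSC+Treg against BCP (0.61 and exact 0.14). In BCP+MSC+RvE1 against BCP, Zfpm1, a partner of GATA factors, was at -0.96 ± 0.30 and Csf2rb, the common beta chain of the interleukin 3 and 5 receptors, at -0.99 ± 0.34, each with an edgeR adjusted p of 0.30 and an exact permutation p of 0.029. Clec10a lay in the other direction, at 0.90 ± 0.39 (edgeR adjusted p = 0.30, exact permutation p = 0.057). In that comparison 6 of 13 receptor subunits and 5 of 20 signalling factors had a lower estimate at an unadjusted p-value under 0.05, beside 6.7% of all genes. Skeletal muscle markers summed to 20558 to 37096 CPM in BCP+MSC+RvE1 and 4459 to 19272 CPM in BCP. Fibroblast markers summed to 13229 to 36722 CPM and 29861 to 48331 CPM in the same groups. The part of these tissues in the lower estimates was not tested. Zfpm1 was also at -0.68 ± 0.30 in BCP+MSC+RvE1 against BCP+MSC (edgeR adjusted p = 0.92, exact permutation p = 0.029). For the injection, in (dep)BCP+MSC+RvE1inj against (dep)BCP+MSC, Tbx21, the regulator of the opposing Th1 fate, was at 1.35 ± 0.50 (edgeR adjusted p = 0.67, exact permutation p = 0.029). Il3, a growth factor of basophils and mast cells, had 0, 0, 8 and 3 counts in (dep)BCP+MSC and 14, 18, 6 and 8 counts in the injected group (edgeR adjusted p = 0.67). The 0 in construct 1 allows a level of up to 0.299 CPM, above the 0.164 and 0.242 CPM of 2 injected constructs, so whether the groups overlap could not be resolved at this depth. Without constructs 1 and 2 of (dep)BCP+MSC the Tbx21 estimate was 0.62 ± 0.45 (edgeR adjusted p = 1.0). Rora was at -1.17 ± 0.35 (edgeR adjusted p = 0.67, exact permutation p = 0.14) and, without those constructs, at -0.19 ± 0.31 (edgeR adjusted p = 1.0). For the difference between injection and priming, Rora was at -1.10 ± 0.49 and, without the same constructs, at -0.12 ± 0.41 (edgeR adjusted p = 1.0 for each). For any difference among the 6 groups 8 of the 63 genes passed the adjusted threshold, where 4.75% of all genes did, namely Clec10a, Rora, Il3, Postn, Bcl11b, Gfi1, Klf4 and Ebi3 in the order of their p-values. That count was 5 without construct 4 of (dep)BCP+MSC+RvE1inj or with the keratinocyte covariate, where 3.67% and 1.88% of all genes passed, and 6 to 8 with any other construct left out. By DESeq2 it was 14, beside the 17.4% of all genes given above. Gfi1 is a repressor needed for ILC2 and Th2 cells and was at 1.03 ± 0.18 CPM in BCP+MSC and 2.54 ± 0.52 CPM in (dep)BCP+MSC+RvE1inj.

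Across the 24 constructs the effector cytokines varied together. Il13 and Il5 had a Pearson r of 0.92 (permutation p = 1e-05) and a Spearman rho of 0.85 (p = 1e-05, the smallest that 100000 permutations can give), with adjusted p-values of 0.00027 and 0.00033 over 67 relations. Leaving out constructs 1 and 2 of (dep)BCP+MSC, which lie farthest from the median in Il13, r was 0.87, and with each group centred on its mean it was 0.94. In the 18 samples with at least 10 counts of both, Il13 exceeded Il5 per kilobase by a median ratio of 5.18, with a range of 2.47 to 7.87. Il4 and Il13 had r = 0.79 (permutation p = 2e-05) and rho = 0.79 (p = 2e-05), with adjusted p-values of 0.00027 and 0.00045, r = 0.73 without the 2 farthest constructs and 0.79 after group centring. The neighbouring gene Rad50, chosen after the values were seen, had r of -0.32 with Il4, -0.22 with Il13 and -0.22 with Il5, with permutation p-values of 0.13, 0.31 and 0.31 (adjusted 0.24, 0.43 and 0.43), rho of -0.41, -0.20 and -0.27 (p = 0.049, 0.35 and 0.21, and adjusted 0.16, 0.54 and 0.40), and r of -0.24, -0.20 and -0.20 without the 2 farthest constructs.

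Among the alarmins the relation was of another kind. Il33 and Tslp had r = 0.70 (permutation p = 0.0013, adjusted 0.0059) but rho = 0.17 (p = 0.41, adjusted 0.59), and without constructs 1 and 2 of (dep)BCP+MSC r was 0.11. After group centring r was 0.52, and 0.30 when these 2 constructs were left out as well. The relation of Il33 to Tslp thus rests largely on these 2 constructs, whereas that of Il13 to Il5 does not. Il33 and its receptor gene Il1rl1 had r = 0.52 (permutation p = 0.0092, adjusted 0.033) and rho = 0.53 (p = 0.0084, adjusted 0.040), with r = 0.48 without the same 2 constructs.

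**Figure D4:**
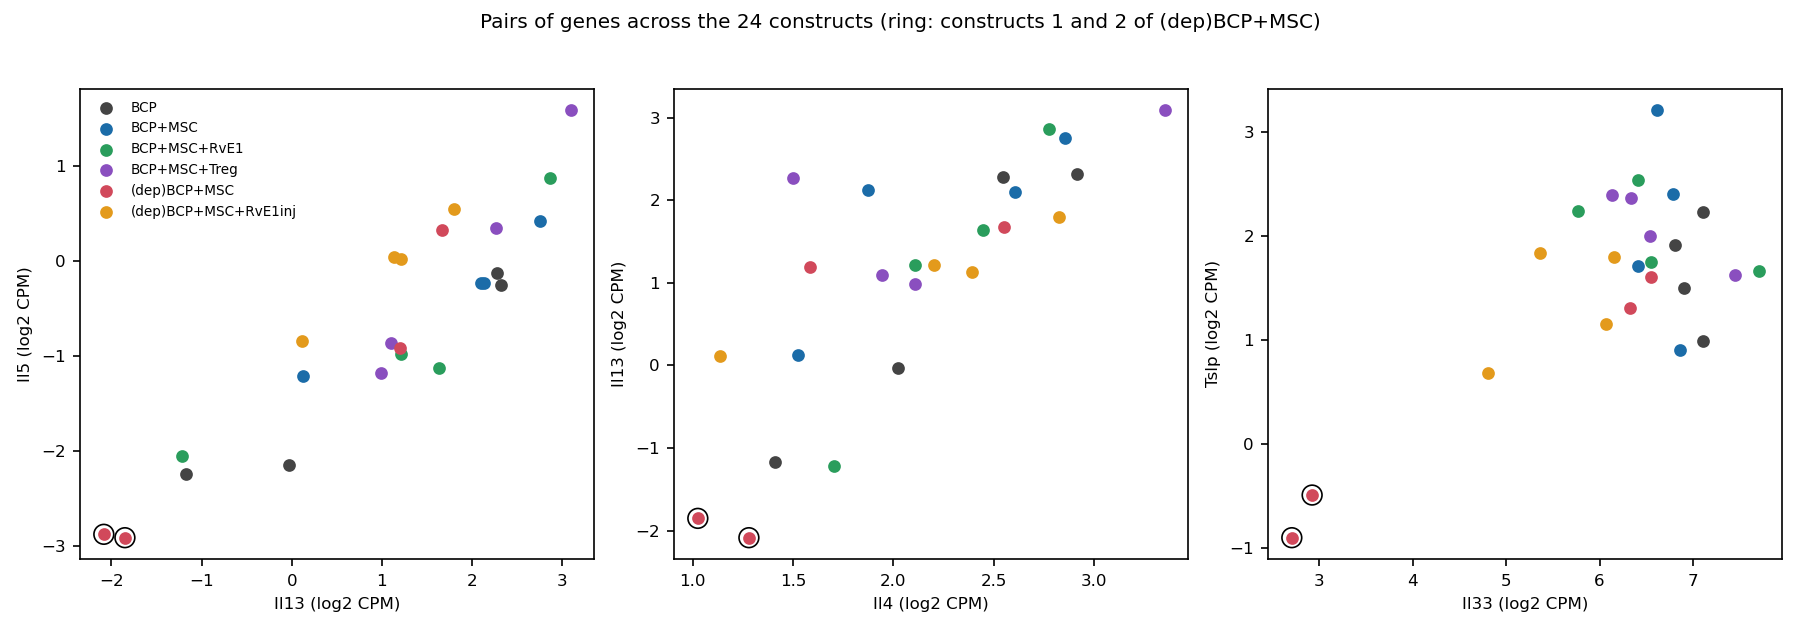
Log2 CPM of Il5 against Il13, Il13 against Il4 and Tslp against Il33 in the 24 constructs, coloured by group, with rings on constructs 1 and 2 of (dep)BCP+MSC. The points of Il13 and Il5 follow a line in all groups (r = 0.92), whereas those of Il33 and Tslp spread once the ringed pair is left out (r = 0.11).

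Marker sums of other cell types moved with some genes of the axis. The 10 eosinophil markers followed Il4 with r = 0.81 (permutation p = 2e-05, adjusted 0.00027) and rho = 0.80 (p = 3e-05, adjusted 0.00050), with r = 0.79 without the 2 constructs farthest in Il4 and 0.86 after group centring. For Il5 the same sum gave r = 0.77 (permutation p = 2e-05, adjusted 0.00027) and rho = 0.71 (p = 0.00023, adjusted 0.0019), and r = 0.74 without constructs 1 and 2 of (dep)BCP+MSC. For Il13 it gave r = 0.72 (permutation p = 8e-05, adjusted 0.00077) and rho = 0.68 (p = 0.00044, adjusted 0.0033). Without the same 2 constructs the r with Il13 was 0.67, and it was 0.78 after group centring. The 15 T cell markers also moved with Il5, with r = 0.55 (permutation p = 0.0049, adjusted 0.019) and rho = 0.66 (p = 0.00064, adjusted 0.0043), r = 0.50 without the same 2 constructs and 0.75 after group centring. For Il4 they gave r = 0.38 (permutation p = 0.066, adjusted 0.16) and rho = 0.49 (p = 0.015, adjusted 0.060), and for Il13 r = 0.36 (permutation p = 0.082, adjusted 0.17) and rho = 0.39 (p = 0.064, adjusted 0.19), with r of 0.38 and 0.25 without the 2 farthest constructs and 0.70 and 0.74 after group centring. Il33 followed the 12 fibroblast markers with r = 0.68 (permutation p = 0.00012, adjusted 0.0010) and rho = 0.72 (p = 0.00011, adjusted 0.0012), but with r = 0.39 after group centring. Against the 9 endothelial markers Il33 had r = -0.06 (permutation p = 0.79, adjusted 0.86) and rho = 0.18 (p = 0.40, adjusted 0.58), with r = 0.28 without constructs 1 and 2 of (dep)BCP+MSC and -0.64 after group centring. Gata3 followed the 20 keratinocyte and hair follicle markers with r = 0.86 (permutation p = 1e-05, adjusted 0.00027) and rho = 0.88 (p = 1e-05, adjusted 0.00033), with r = 0.81 without the 2 constructs farthest in Gata3 and 0.82 after group centring. Against the T cell markers Gata3 had r = 0.55 (permutation p = 0.0059, adjusted 0.022) and rho = 0.49 (p = 0.016, adjusted 0.061), with r = 0.47 without the 2 farthest constructs and 0.24 after group centring. A list of 10 ILC2 and Th2 markers summed to 30.3 to 74.7 CPM over all samples, with none at 0 in every sample of a group, and had r of 0.26 with Il13 (permutation p = 0.22, adjusted 0.33, rho = 0.12, p = 0.57, adjusted 0.69, and r = -0.12 without the 2 farthest constructs). The points of each correlation share their libraries, and no sequencing batch was given by which to split them.

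**Figure D5:**
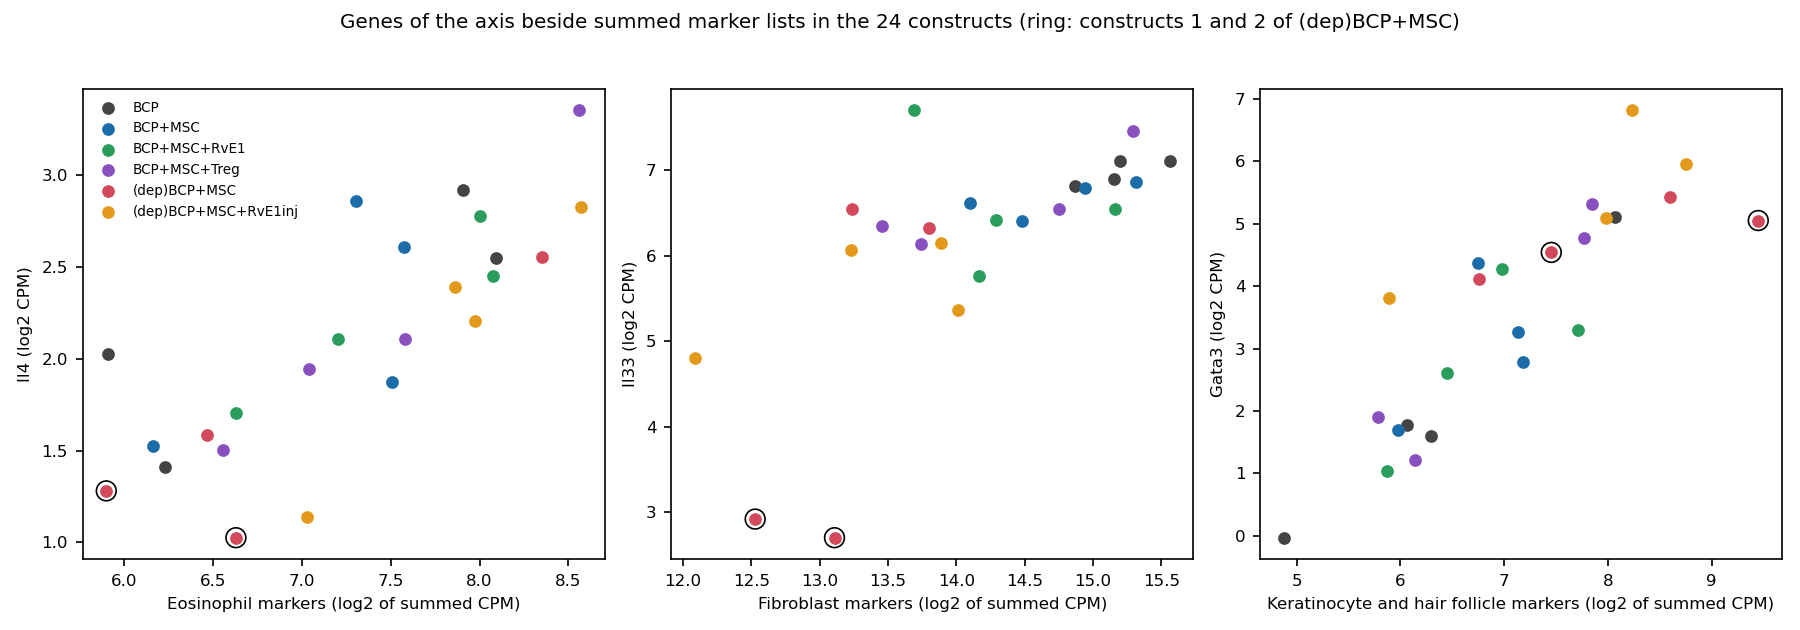
Log2 CPM of Il4, Il33 and Gata3 against the log2 of the summed CPM of eosinophil, fibroblast and keratinocyte or hair follicle markers in the 24 constructs, coloured by group, with rings on constructs 1 and 2 of (dep)BCP+MSC. All 3 rise together over the constructs (r = 0.81, 0.68 and 0.86), and the ringed pair lies below the other points in Il33.

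The genes most like each member were sought among 14270 better expressed genes, by Pearson r of log2 CPM over the 24 samples, as a description without a test. The closest to Il13 were Pdia4 (0.91), Mgl2 (0.90) and Tmem26 (0.89), and the closest to Il5 were Il13 (0.92), Wdr54 (0.88) and Mgl2 (0.88). Mgl2, a lectin of macrophages and dendritic cells induced by interleukin 4, was on the list of target genes. Il4 was most like Tradd (0.86), Nup62 (0.85) and Acap1 (0.84). The closest to Il33 were Cass4 (0.94), Lcp1 (0.93) and Socs5 (0.93), and to Tslp Pepd, Lst1 and Epsti1, at 0.90 each. Il4ra was most like Tnfrsf9, Mrc1 and Tmem8, at 0.89 each, Mrc1 being the mannose receptor of alternatively activated macrophages, but its r with the summed macrophage markers was 0.17. Gata3 was most like Elf3 (0.93), Grb7 (0.92) and Rnf208 (0.92), of which Elf3 is an epithelial transcription factor. Il1rl1 and Il9r had no gene above 0.80, the nearest being Ttpal (0.80), F2r (0.79) and Usp37 (0.78) for Il1rl1, whose r with the summed mast cell and basophil markers was -0.29, and Poc1a (0.77), Btla (0.70) and Iglc2 (0.67) for Il9r.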

How the data were processed

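RNA from whole constructs was made into stranded mRNA libraries by the authors, sequenced as paired ends, aligned with HISAT2 2.0.5 and counted on exons with featureCounts 1.5.2 and GENCODE M13. The deposited values are raw counts of 51138 genes, and the counting command names no strand option, so antisense genes that overlap an exon can affect Il5, Il4ra and Gata3. Symbols came from a table of gene identifiers and names and matched 50376 rows, exon lengths came from the deposited table, and gene positions from a later GENCODE release on GRCm38. The members and gene lists were chosen with earlier results of these data known. All 10 members are named with their levels, and a fold change with its test is given, in the comparisons tested, where the unadjusted p-value was under 0.05 or the groups did not overlap; other pairs of groups are described by their levels alone, and Il5, Il13 and Il33 were added in places after their values were seen. Over the 4 pathway lists combined, the genes past the adjusted threshold are named (by rule up to 6 in each direction, with Klf4 and Ebi3 added for any difference among the groups) or, where none passed, up to 2 in each direction with the smallest unadjusted p-value under 0.05. Chil3 was added after its values were seen.

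The 30564 genes whose counts summed to 10 or more were fitted in edgeR 4.0.16 (R 4.3.3) as 1 quasi-likelihood model of the 6 groups with TMM scaling, and p-values were adjusted by Benjamini-Hochberg over all of them. The SE is the size of the log2 fold change divided by the square root of F. Levels are TMM-scaled CPM, and log2 CPM used a prior count of 2. An exact permutation test, two-sided, was added for single genes and cannot go below 0.0286 for 4 against 4. Correlations used 100000 two-sided permutations. On simulated counts for (dep)BCP+MSC against BCP+MSC edgeR called 144 of 200 changed genes, namely 5, 39, 50 and 50 of 50 at fold changes of 2, 4, 8 and 16, and DESeq2 1.42.0 called 152, with 4 and 18 unchanged genes called besides. The simulation gave all genes the same dispersion and changed only better counted genes. Its recovery need not hold for scarce or more variable genes of the axis.

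Samples of a group are separate animals by the study's methods. Of the (dep)BCP+MSC columns, those numbered 4 and 5 matched no single sample by number, so they entered their group unnumbered. Alternatives were RLE scaling, other filters, a replicate block, covariates for Xist, keratinocyte markers and library size, edgeR on 2 groups, DESeq2 and each animal left out. The floor of 3 counts covers counting error only.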

Additional observations from a re-analysis of the deposited data

Results flagged for a closer look

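Il9r had a construct far from the others in BCP, where construct 4 held 0.252 CPM (4 counts) and the 3 others 2.39, 1.77 and 1.88 CPM. It was the only such case in 56 groups of 4 examined, where chance alone marks about 1 in 20. Without construct 4 the Il9r estimate was -0.93 ± 0.44 in BCP+MSC+RvE1 against BCP and -1.08 ± 0.45 in BCP+MSC+Treg against BCP, where it passed the unadjusted threshold of edgeR but not the adjusted one (adjusted p of 0.57 and 0.89), as 7.84% and 3.85% of all genes did in that fit. With all 4 constructs it passed neither threshold, and the construct was singled out for its own Il9r value. In the injection effect minus the priming effect of RvE1, delivery and depletion cannot be told apart. Its estimate was 1.60 on the log2 scale for Il9r and 4.78 for Il25. Both passed the unadjusted threshold of edgeR, as did 4.45% of all genes, and neither passed the adjusted one (adjusted p = 1.0 for each). Without constructs 1 and 2 of (dep)BCP+MSC Il9r no longer passed the unadjusted one. Of the 16 fits that left out 1 construct, Il9r passed the unadjusted threshold in 8 and Il25 in 6. Under the other settings Il9r passed it in 7 of 9 and Il25 in 2 of 8. The Il25 estimate rests on 9 counts against 0 in depleted mice and on 10 against 6 counts in BCP+MSC+RvE1 and BCP+MSC, and depends on the prior count of the model.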

How the results depend on the processing

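The count of members past the adjusted threshold stayed at 0 in all 11 tests under RLE scaling, the other filters and the 3 covariates. It stayed at 0 with edgeR on the 2 groups compared in the 9 comparisons between groups, where alone that fit can be made, and, as a choice made after seeing the data, without constructs 1 and 2 of (dep)BCP+MSC in the tests that use them. DESeq2 called 1 member in (dep)BCP+MSC against BCP+MSC (Tslp, -1.51, adjusted p = 0.019) and 1 for any difference among the 6 groups (Gata3, adjusted p = 0.049), where it called 12.5% and 17.4% of all genes. With each animal left out the count ran from 0 to 1 in (dep)BCP+MSC against BCP+MSC, where Tslp was called without construct 5 of (dep)BCP+MSC (-1.96, adjusted p = 0.038), and was 0 elsewhere. The replicate block called 2 members in (dep)BCP+MSC against BCP+MSC (Il33 and Tslp), 1 in (dep)BCP+MSC+RvE1inj against (dep)BCP+MSC (Il33) and 1 for any difference (Il33), where it called 8.12%, 1.14% and 5.41% of all genes. That fit left out constructs 4 and 5 of (dep)BCP+MSC, which have no number, so its group there is constructs 1 and 2 alone. The numbers do not pair the animals, since of 50 same-numbered pairs across groups 19 correlated above 0.1, with a range of -0.64 to 0.58. Under these settings no estimate of Tslp, Rora, Postn, Clec10a or Ebi3 changed sign in (dep)BCP+MSC against BCP+MSC. The same held for Gata3, Clec10a and Bcl11b in (dep)BCP+MSC+RvE1inj against BCP+MSC. It also held for Il9r and Il25 in (dep)BCP+MSC+RvE1inj against (dep)BCP+MSC and in the difference between injection and priming. The Tslp estimate ranged from -2.90 to -0.83 over the settings other than leaving out an animal, and Gata3 in (dep)BCP+MSC+RvE1inj against BCP+MSC from 1.82 to 4.36, the latter with Xist as a covariate. Low depth limits the scarce genes. At least 10 counts were reached in 0 of the 24 samples for Il25, 18 for Il5 and 22 each for Il13 and Il9r. The floor reached 0.299 CPM, and the simulated fit recovered few changes of 2-fold. That fit gave all genes the same dispersion, so its recovery of larger changes need not hold for the scarce genes.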
